A study of Drosophila melanogaster with 12 samples.

Results

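Accessible chromatin was described at 7 head patterning genes of Drosophila melanogaster, namely oc, ems, btd, cnc, croc, fd19B and toy. The genes were chosen by their known role in the head and selected on the presence of their peaks in these libraries, and peaks of different libraries that overlapped by at least 20% of both were joined into sites. A site was taken when at least 1 of its peaks overlapped a gene's span extended by 5 kb on each side, and its other peaks came with it. This gave 52 sites of the 22931 found in all 12 libraries, numbered along each gene (oc 11, ems 5, btd 4, cnc 18, croc 4, fd19B 2 and toy 8). Because the peak calls also chose the genes, the values below are a description and no test was made on them.

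The libraries were made by ATAC-seq, in which a transposase cuts DNA that is free of nucleosomes, from pooled, hand-picked whole embryos. The 6 groups of 2 libraries were HIRA maternal mutants at 2-3 h, their wild type at 2-3 h, HIRA maternal mutants at 0.5-1.5 h, their wild type at 0.5-1.5 h, dPCIF1 maternal mutants at 0.5-1.5 h and the wild type for those. Both mutants are labelled M-Z+. By that label the mother lacked the gene (null CRISPR alleles, per the study's methods) and the embryo carried a zygotic copy, which was not checked here. The wild type was the w1118 strain. HIRA is the chaperone that places histone variant H3.3 in nucleosomes, and dPCIF1 is the homologue of the mammalian cap methyltransferase PCIF1. Libraries of whole embryos pool all their nuclei, so fewer open nuclei and a weaker opening in each nucleus cannot be told apart. The absence of maternal protein cannot be read from peak positions. Per the study, most HIRA mutant embryos at 2-3 h are delayed or arrested in their nuclear divisions, some perhaps without any division, which cannot be told apart from an effect at these genes. The study also cites a role of HIRA in forming the diploid zygote. The labels give no ploidy, so an effect of that role on the HIRA mutant libraries cannot be told apart either.

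The head of the fly embryo is laid out by the maternal Bicoid gradient and by terminal signals, which switch on the head gap genes in overlapping anterior stripes. Zelda and GAGA factor (GAF) are pioneer factors, which open chromatin ahead of the activation of the embryo's own genes. Of the genes here, oc (orthodenticle) and ems encode homeodomain head gap factors and btd encodes a zinc finger head gap factor. The bZIP gene cnc specifies mandibular and labral structures, croc and fd19B encode forkhead factors, and toy is a Pax6 gene that acts upstream of ey in eye development.

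Of the sites, 8 lay at a transcription start site (TSS, within 100 bp) of the 7 genes and 2 at a TSS of the neighbouring gene Irk1. A further 9 had their midpoint in a coding exon of the 7 genes, and the other 33 were called distal. Over the whole series, coding exons of any gene were counted. By that rule cnc-1, cnc-10, cnc-11 and cnc-16, distal here, would be coding-exon sites. A site was open in a group when both libraries had a peak there. A site open in one group was called lost in another when neither library of that other group had a peak, and gained in the reverse case.

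Sequences are given as context for the sites on which the results turn, from the RefSeq Release 6 sequence (the dm6 assembly), 5′ to 3′ on the strand of the gene. Capitals mark matches, on either strand, to CAGGTAG (Zelda), GAGAGAG (GAF), TATCGAT (DREF) and TAATCC (Bicoid). The first set holds the 5 sites open in all 12 libraries. The TSS sites oc-3, btd-2 and cnc-14 held matches in the 201 bp around the midpoint, and ems-1 and the toy coding-exon site toy-8 held none, so their central 101 bp are shown.
oc-3, chrX:8650772-8650972: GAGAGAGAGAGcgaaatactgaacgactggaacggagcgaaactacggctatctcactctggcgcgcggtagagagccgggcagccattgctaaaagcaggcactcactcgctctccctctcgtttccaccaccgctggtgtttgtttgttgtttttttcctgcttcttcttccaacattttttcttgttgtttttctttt
ems-1, chr3R:13901669-13901769: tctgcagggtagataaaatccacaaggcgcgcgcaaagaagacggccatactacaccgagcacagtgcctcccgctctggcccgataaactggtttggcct
btd-2, chrX:9693920-9694120: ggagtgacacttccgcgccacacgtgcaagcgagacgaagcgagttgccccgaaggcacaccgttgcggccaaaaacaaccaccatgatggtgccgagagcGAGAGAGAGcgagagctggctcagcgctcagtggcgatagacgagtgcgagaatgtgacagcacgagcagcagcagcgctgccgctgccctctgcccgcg
cnc-14, chr3R:23193396-23193596: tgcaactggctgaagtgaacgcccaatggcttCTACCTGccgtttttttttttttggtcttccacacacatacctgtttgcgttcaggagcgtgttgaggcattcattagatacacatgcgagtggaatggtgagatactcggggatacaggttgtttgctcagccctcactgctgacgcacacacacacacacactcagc
toy-8, chr4:1006087-1006187: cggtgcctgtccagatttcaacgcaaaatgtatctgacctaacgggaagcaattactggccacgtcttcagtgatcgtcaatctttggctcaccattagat

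The second set holds the other sites with a Zelda match within the 201 bp. In the cnc intron site cnc-5, a match on each strand stood 4 bases apart and was flanked by a GAF match on either side. The sites croc-1, toy-3 and toy-4 had a peak in 1 or 2 libraries, and only the match with its neighbours is shown.
cnc-5, chr3R:23215699-23215899: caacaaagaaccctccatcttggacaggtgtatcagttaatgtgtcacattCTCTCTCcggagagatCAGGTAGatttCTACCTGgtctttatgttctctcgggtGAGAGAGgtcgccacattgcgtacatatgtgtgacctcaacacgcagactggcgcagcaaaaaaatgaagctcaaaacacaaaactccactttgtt
croc-1, chr3L:21480525-21480565: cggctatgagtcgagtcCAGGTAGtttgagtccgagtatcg
toy-3, chr4:993416-993456: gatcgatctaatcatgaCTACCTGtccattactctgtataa
toy-4, chr4:995451-995491: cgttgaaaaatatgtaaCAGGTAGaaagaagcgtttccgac

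The third set was chosen after the values were seen, from sites that differed between mutant and wild-type libraries, and shows only sites with matches. The sites cnc-11, cnc-12 and btd-3 were also lost in early mutants, held no match in the 201 bp and are not shown. Nor is cnc-13, which was lost too and held 1 Bicoid match there. croc-3, at the croc TSS, held 13 overlapping GAF matches in a single CT run, and croc-2, at -3.33 kb from the TSS, held 2. oc-4, at the second oc TSS, held 1 Bicoid match. For fd19B-2 the upstream end of the site is shown in place of the midpoint, with 4 Bicoid matches in the same orientation as the gene. The 201 bp around its midpoint held 0, so it is not among the Bicoid sites counted by midpoint below.
croc-3, chr3L:21476668-21476868: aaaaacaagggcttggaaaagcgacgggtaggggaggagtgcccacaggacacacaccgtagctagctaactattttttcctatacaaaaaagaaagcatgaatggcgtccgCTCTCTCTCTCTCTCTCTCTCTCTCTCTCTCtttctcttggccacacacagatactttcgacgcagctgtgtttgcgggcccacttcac
croc-2, chr3L:21479707-21479907: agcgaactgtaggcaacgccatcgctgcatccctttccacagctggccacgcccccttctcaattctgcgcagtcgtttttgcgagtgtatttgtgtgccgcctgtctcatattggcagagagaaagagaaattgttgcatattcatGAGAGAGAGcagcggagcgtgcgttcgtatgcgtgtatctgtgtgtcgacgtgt
oc-4, chrX:8643483-8643683: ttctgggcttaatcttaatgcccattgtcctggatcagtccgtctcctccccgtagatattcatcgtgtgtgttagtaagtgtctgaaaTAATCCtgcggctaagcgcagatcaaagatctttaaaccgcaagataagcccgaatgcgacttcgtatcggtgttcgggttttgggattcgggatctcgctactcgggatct
fd19B-2, chrX:20092467-20092667: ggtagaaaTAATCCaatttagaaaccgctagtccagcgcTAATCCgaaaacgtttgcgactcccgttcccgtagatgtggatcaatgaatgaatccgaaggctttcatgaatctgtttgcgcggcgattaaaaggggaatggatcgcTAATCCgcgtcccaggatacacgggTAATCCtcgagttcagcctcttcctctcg

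**Figure D1:**
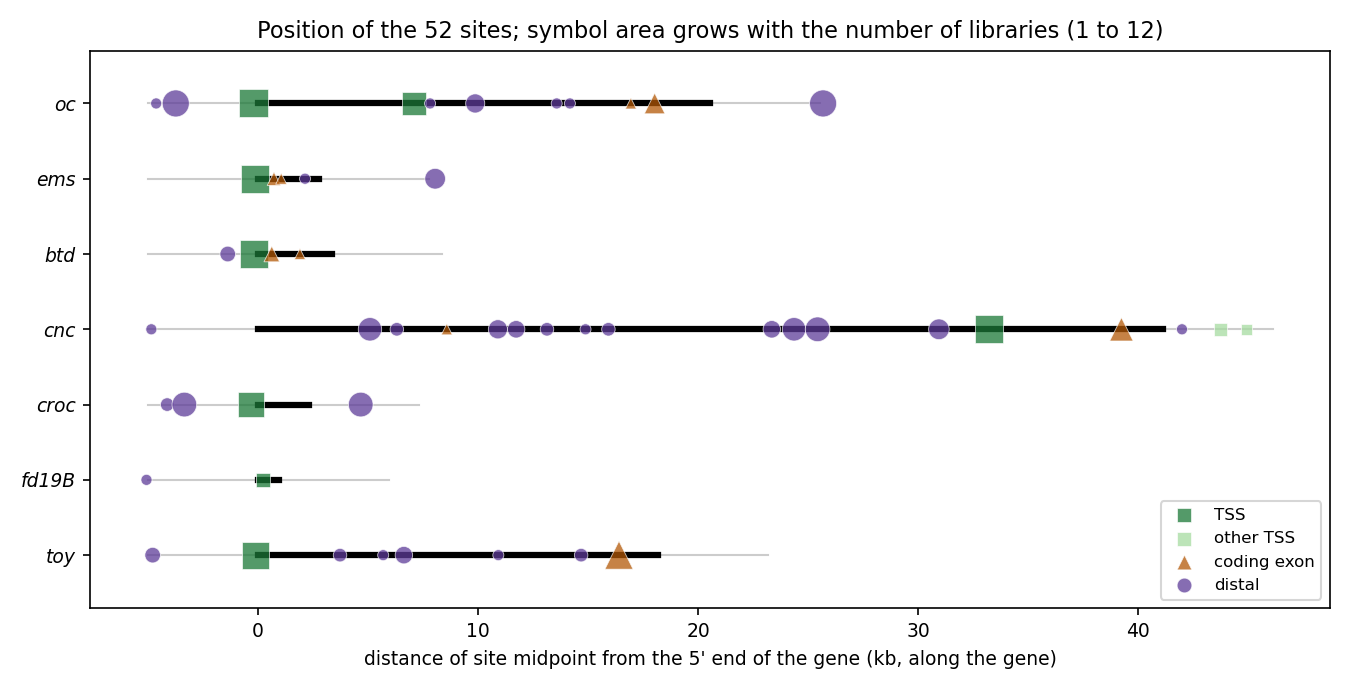
Position of each of the 52 sites along its gene, in kb from the 5′ end of the gene to the site midpoint. Black bars are gene spans, grey lines the 5 kb on each side, colours and shapes the site class, and the symbol area grows with the number of libraries with a peak. The TSS sites of oc, ems, btd and cnc and the toy coding-exon site were present in all 12 libraries.

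The promoters of oc, ems, btd and cnc and a coding exon of toy were open in every library, while the fd19B promoter had a peak in 2 of 12. The genes were selected on the presence of peaks, so sharing between libraries is in part what the choice used. Of the 52 sites, 5 (9.62%) had a peak in all 12 libraries, compared with 3.06% of all 22931 sites. At TSS, 4 of 8 member sites did so, against 5.82% of 5378 TSS sites of the series. At the other end, 16 of the 52 sites (30.8%) had a peak in 1 library, against 37.6% of all sites, and 29 (55.8%) were open in both libraries of at least 1 group, against 49.2%. None of the 33 distal sites was in all 12 libraries, against 3.06% of all distal sites, and their median of 2 libraries was that of all distal sites. The 33 include sites in coding exons of neighbouring genes, a kind not counted as distal in the series.

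The main oc promoter, oc-3 (chrX:8650512-8651233), was covered by peaks of 663 and 631 bp in HIRA mutants at 2-3 h and by peaks of 697 and 697 bp in their wild type. At 0.5-1.5 h its peaks were 398 and 418 bp wide in HIRA mutants and 593 and 605 bp in wild type. In the dPCIF1 set they were 722 and 683 bp in mutants and 625 and 632 bp in wild type. The peak was therefore present throughout, and the narrowest were those of the early HIRA mutants. Peaks of these mutant libraries were narrower in general, with medians of 293 and 301 bp against 334 and 353 bp in wild type. Among all peaks of their libraries, the oc-3 widths stood at the 79.5 and 79.7 percentile in mutants and at 88.7 and 86.8 in wild type. In the dPCIF1 set these percentiles overlapped, at 90.2 and 88.3 in mutants and 88.9 and 88.5 in wild type. Peaks of the dPCIF1 mutant libraries were wider in general, with medians of 375 and 374 bp against 337 and 345 bp in wild type.

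The ems promoter, ems-1 (chr3R:13901437-13902001), was also narrowest in these libraries. Its peaks were 219 and 254 bp wide in HIRA mutants at 0.5-1.5 h, against 478 and 495 bp in wild type, so that the groups did not overlap. These widths stood at the 16.3 and 30.5 percentile of all peaks of the mutant libraries and at the 77.1 and 76.5 percentile of the wild-type libraries. At 2-3 h the peaks were 534 and 476 bp wide in HIRA mutants and 544 and 537 bp in wild type. In dPCIF1 mutants they were 516 and 505 bp, against 472 and 416 bp in wild type. As percentiles of their libraries these widths overlapped, at 74.0 and 73.1 in mutants and 75.8 and 65.9 in wild type.

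At the btd promoter, btd-2 (chrX:9693668-9694373), the peaks were 362 and 553 bp wide in early HIRA mutants, against 625 and 609 bp in wild type. In all 10 other libraries they were between 592 and 658 bp wide. As percentiles of their libraries, the early btd-2 widths stood at 71.5 and 92.3 in HIRA mutants and at 90.5 and 87.2 in wild type. The cnc promoter used here, cnc-14 (chr3R:23193096-23193897), lies inside the gene at the start of shorter transcripts. No site lay within 100 bp of the 5′ end of the whole gene. The cnc-14 peaks were 365 and 645 bp wide in early HIRA mutants and 533 and 585 bp in wild type, so that these groups overlapped. Their percentiles were 72.4 and 95.7 in mutants and 83.5 and 85.6 in wild type. The toy coding-exon site toy-8 (chr4:1005788-1006486), 16.4 kb into the gene, had peaks of 429 and 296 bp in early HIRA mutants and of 563 and 694 bp in wild type. At toy-8 the percentiles were 84.0 and 48.1 in mutants and 86.5 and 92.2 in wild type. Of its 699 bp, 624 bp were coding, which is 31.8% of the toy coding sequence.

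**Figure D2:**
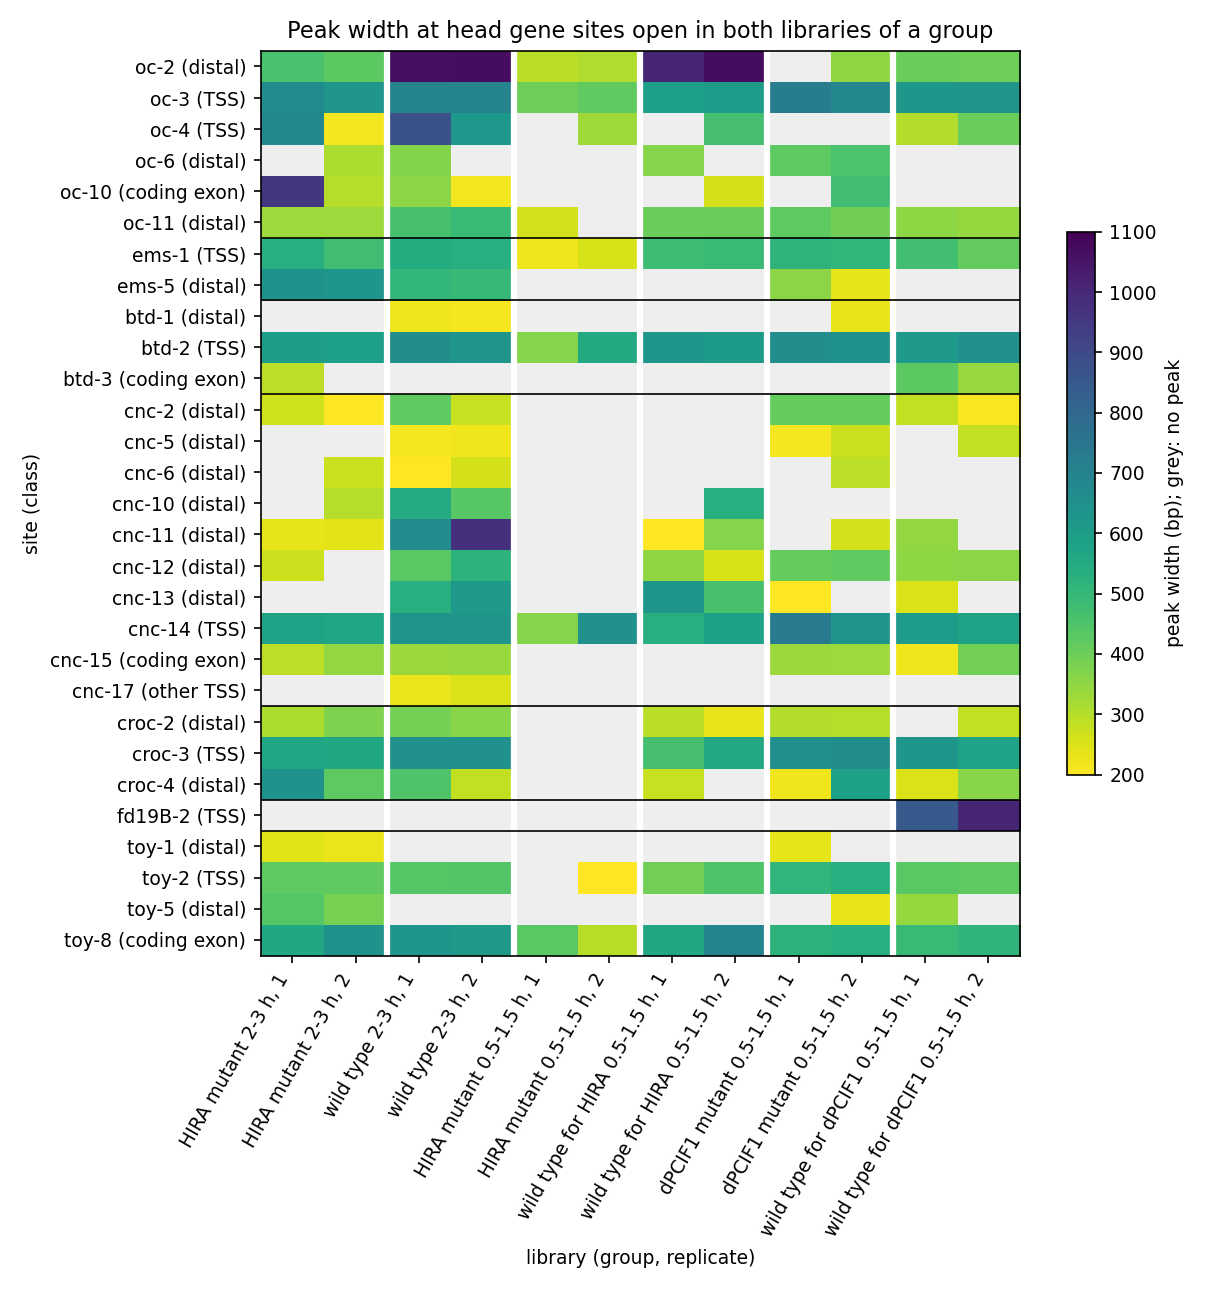
Peak width in bp (colour; grey, no peak) at the 29 sites open in both libraries of at least 1 group, by library. The croc rows are empty in both HIRA mutant libraries at 0.5-1.5 h, and the fd19B-2 row is filled only in the wild-type libraries for dPCIF1.

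At 0.5-1.5 h, chromatin at the head genes was open at fewer sites in HIRA mutants than in wild type, with croc showing no peak at all. HIRA mutant libraries had peaks at 7 and 9 of the 52 sites, and wild-type libraries at 16 and 17. Of 13 sites open in wild type, 5 were lost, 6 were kept and 2 (oc-11 and the toy TSS toy-2) had a peak in 1 mutant library. Over the whole series 47.5% of wild-type sites were lost by the same rule, so the 5 of 13 (38.5%) at the head genes lay near the background. Gains were 0 of the 6 sites open in mutants, against 6.55% of all sites.

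The lost sites were croc-3 at the croc TSS, the upstream croc-2, and cnc-11, cnc-12 and cnc-13 in introns of cnc. At croc-3 (chr3L:21476416-21477121) neither mutant library had a peak, against widths of 467 and 557 bp in wild type, and in the other 8 libraries it was 560 to 655 bp wide. At croc-2 the wild-type peaks were 293 and 231 bp wide. Both croc sites carry the GAF matches printed above, and the lost cnc sites held no GAF match around the midpoint. The cnc sites lie in the stretch that also holds the nested gene fzo, a fly mitofusin, with cnc-11 partly in its coding exon. Their wild-type peaks were 201 and 362 bp wide at cnc-11, 349 and 253 bp at cnc-12, and 625 and 462 bp at cnc-13. By class, 4 of 6 distal sites and 1 of 6 TSS sites were lost, against 43.5% of distal and 51.3% of TSS sites in the whole series. The distal counts are not quite alike, since cnc-11 would be a coding-exon site by the rule for the series. Of coding-exon sites in the series, 48.4% were lost.

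Counted by gene, 4 of 7 head genes (oc, ems, btd and cnc) had an open TSS in early HIRA mutants and 6 of 7 (also croc and toy) in wild type. Over 13968 protein-coding genes these shares were 2.39% and 11.0%. The toy TSS had a peak of 200 bp in HIRA mutant replicate 2 and none in replicate 1, against 390 and 449 bp in wild type. Among 15 other anterior patterning genes taken as a list (tll, gt, hb, kni, hkb, slp1, slp2, bcd, ey, eya, Gsc, lab, pb, Dfd and D), 3 had an open TSS in HIRA mutants (tll, hkb and D) and 14 in wild type. The 1 without a peak in any library was bcd, whose mRNA is deposited by the mother.

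The HIRA mutant libraries held 1505 and 2399 peaks in all, compared with 4707 and 5449 in wild type, and how far this set the losses was not tested. When each library was limited to its 1505 widest peaks, 1 of 7 wild-type sites was lost (all sites, 27.9%), and that site was croc-3. Leaving out either wild-type library gave 8 lost, of 17 sites without replicate 1 (47.1%, against 63.5% of all sites) and of 16 without replicate 2 (50.0%, against 59.7%).

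At 2-3 h, most head gene sites were open in HIRA mutants as in wild type, croc included. HIRA mutant libraries had peaks at 31 and 26 sites, and wild-type libraries at 28 and 25. Of 24 wild-type sites, 17 were kept, 4 were lost and 3 (cnc-12, cnc-10 and cnc-6) had a peak in 1 mutant library. In all, 21.1% of wild-type sites of the series were lost, against 16.7% here. Of 19 sites open in HIRA mutants 2 were gained, or 10.5%, with 11.3% over all sites.

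The sites lost at 2-3 h were btd-1, cnc-5, cnc-13 and cnc-17, the last at a TSS of Irk1, a potassium channel gene next to cnc. Of these, 3 were narrow in wild type. Wild-type peaks were 218 and 212 bp wide at btd-1, 212 and 218 bp at cnc-5 and 225 and 246 bp at cnc-17. At cnc-13 they were 534 and 613 bp wide, with no peak in HIRA mutants, so this intron site was missing in HIRA mutants at both stages. In the same stretch of introns, cnc-11 had peaks of 233 and 238 bp in HIRA mutants, against 665 and 980 bp in wild type. The gained sites were toy-1, at -4.77 kb from the toy TSS, with mutant peaks of 245 and 227 bp, and toy-5 in an intron, with 438 and 385 bp.

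The upstream oc site oc-2 (chrX:8653843-8654966), at -3.72 kb from the main TSS, kept its peaks but changed in outline. In HIRA mutants at 2-3 h it was called as 2 peaks per library, which added up to 767 and 720 bp, against a single peak of 1066 and of 1070 bp in wild type. At 0.5-1.5 h the HIRA mutants had 1 peak of 294 bp in replicate 1 and 2 peaks adding up to 517 bp in replicate 2, against single peaks of 1003 and 1069 bp in wild type. Split peaks were not seen in HIRA mutants only, since both wild-type libraries for dPCIF1 also had 2 peaks, adding up to 743 and 732 bp. dPCIF1 mutants had none in replicate 1 and 2 peaks of 656 bp in sum in replicate 2.

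By gene, 6 of 7 had an open TSS in HIRA mutants and the same 6 in wild type at 2-3 h, against 13.3% and 21.8% of all protein-coding genes. In the list of 15, 13 were open in HIRA mutants and 14 in wild type, the difference being hb, a gap gene, with a TSS peak in 1 mutant library. The HIRA mutants had 18.8% and 19.5% of their peaks on the X chromosome and the wild type 14.5% and 14.4%. At 0.5-1.5 h these shares were 20.8% and 20.4% in HIRA mutants and 19.4% and 18.2% in their wild type. In the early wild type for dPCIF1 they were 12.2% and 12.2%, so the X share also differed with age and between wild-type sets. These shares stand beside the values for the X-linked oc, btd and fd19B, and their part in them was not tested. The number of sites with a peak was 7 and 7 in HIRA mutants and 8 and 5 in wild type at oc, and 8 and 8 against 11 and 11 at cnc. Without wild-type replicate 2 the lost sites numbered 7 of 28 (25.0%, against 35.0% of all sites), and among the 1505 widest peaks 1 of 2 (all sites, 26.7%).

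**Figure D3:**
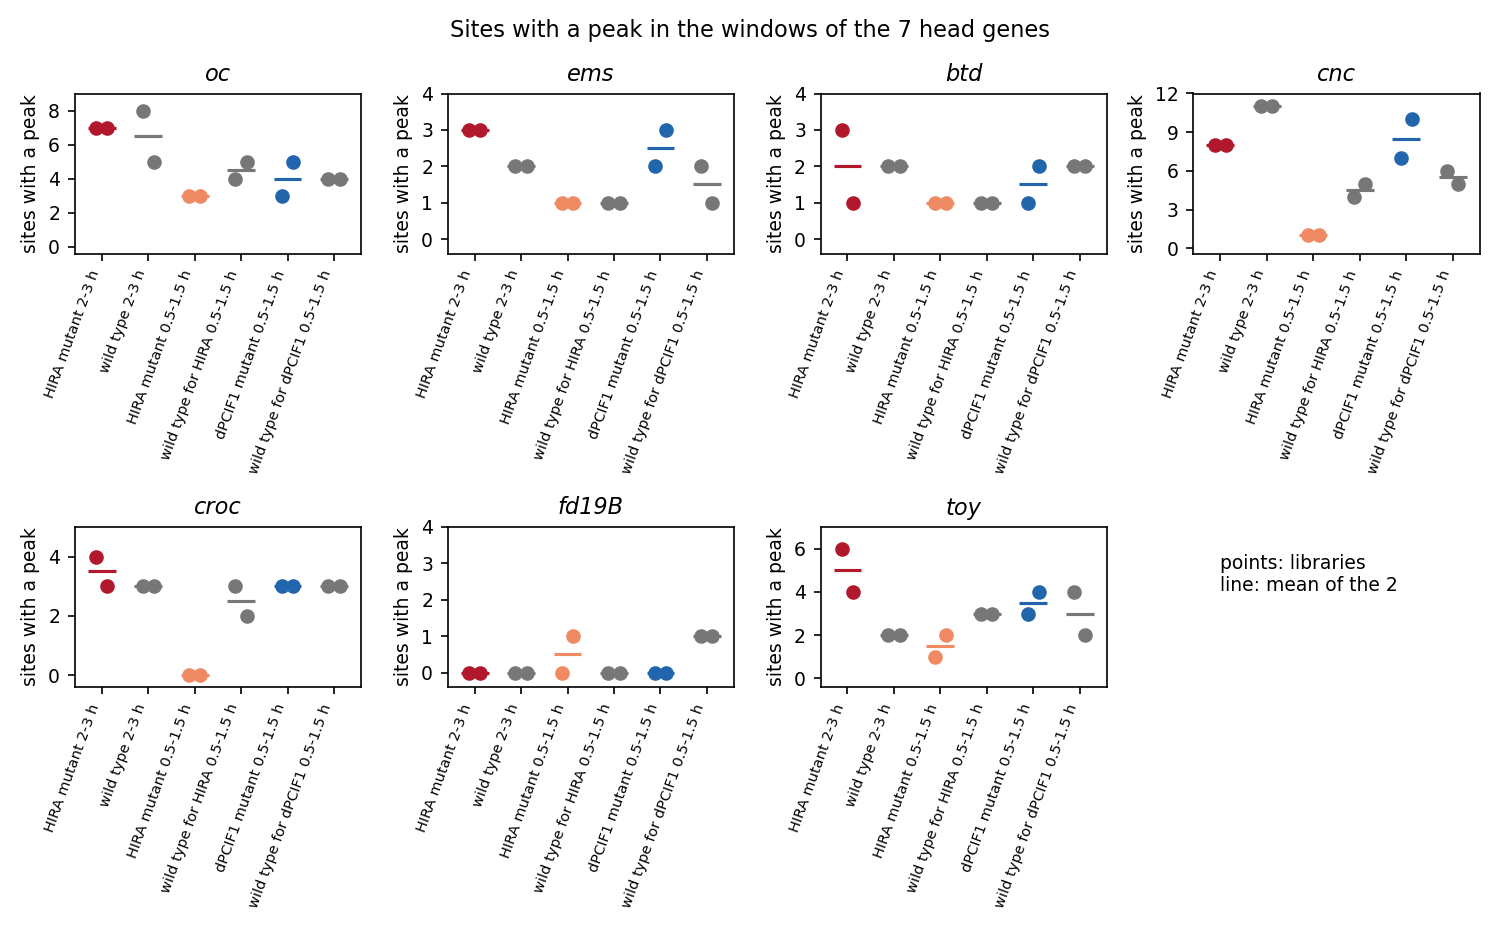
Number of sites with a peak at each of the 7 genes, by group; points are libraries and lines their mean. The early HIRA mutants have 0 sites at croc and 1 at cnc, and toy has 6 and 4 sites in HIRA mutants at 2-3 h against 2 and 2 in wild type.

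In dPCIF1 mutants at 0.5-1.5 h, most head gene sites were open as in wild type, and 3 sites at fd19B, oc and btd were lost. Mutant libraries had peaks at 19 and 27 sites, and wild-type libraries at 22 and 18. Of 16 wild-type sites 12 were kept, 3 were lost and 1 (oc-2) had a peak in 1 mutant library. The 3 of 16 make 18.8%, with 9.92% over all sites of the series. Of 16 sites open in mutants 2 were gained (12.5%), against 25.4% of all sites.

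The lost sites were fd19B-2, oc-4 and btd-3. At fd19B-2 (chrX:20091660-20092667) there was no peak in either mutant library, against 847 and 1008 bp in wild type, at the 96.3 and 98.1 percentile of width in those libraries. The site runs from upstream of the TSS over 93.1% of the fd19B coding sequence. It had no peak in any of the 8 libraries of the HIRA set either, wild types included, so it set the wild-type libraries for dPCIF1 apart from the 10 others. The only other fd19B site, fd19B-1, had a peak in 1 early HIRA mutant library. Because the genes were selected on the presence of peaks, the loss of fd19B-2 is in part what the choice used. At oc-4 (chrX:8643145-8644021), the second oc promoter, there was no mutant peak, against 302 and 403 bp in wild type. oc-4 had peaks of 684 and 214 bp in HIRA mutants and of 877 and 620 bp in wild type at 2-3 h, and a peak in 1 library of each early group of the HIRA set. btd-3, in the btd coding exon, had no mutant peak, against 428 and 338 bp in wild type. All 3 lie on the X chromosome, as did 7 of the 16 sites open in wild type. The X held 11.8% and 11.5% of peaks in the mutants and 12.2% and 12.2% in wild type, and over the series 9.22% of X sites open in wild type were lost. By class, 2 of 8 TSS sites were lost, fd19B-2 among them, compared with 2.72% of 2135 TSS sites of the series.

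The gained sites were oc-6, in an oc intron, with mutant peaks of 424 and 454 bp, and ems-5, 8.06 kb downstream of the ems TSS, with 357 bp in replicate 1 and a widest peak of 235 bp in replicate 2. Over its whole length oc-6 held 8 GAF matches, with 0 in the 201 bp around its midpoint, so it is not among the GAF sites counted by midpoint below. At ems-5 the 4 libraries of the 2-3 h groups also had peaks, of 637 and 628 bp in HIRA mutants and of 505 and 498 bp in wild type, and the other early libraries had none. Only the peak of mutant replicate 1 reached the ems window itself, so ems-5 was taken through the group in which it then counted as gained. The TSS of 6 of 7 genes were open in dPCIF1 mutants and 7 of 7 in wild type, against 23.7% and 15.2% of all protein-coding genes. The difference was fd19B, whose TSS had peaks only in that wild type, so this count too is in part what the choice used. In the list of 15 the count was 14 in mutants and 14 in wild type.

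The lost sites depended on which wild type was used. Against the early wild-type libraries of the HIRA set, 0 of 13 sites were lost (all sites, 5.82%) and 4 of 16 were gained (42.2%). Without mutant replicate 1 the gained sites numbered 10 of 27 (37.0%, against 40.5% of all sites), and without wild-type replicate 2 the lost sites numbered 6 of 22 (27.3%, against 21.1%). The dPCIF1 mutant libraries held 9774 and 11347 peaks and the wild-type libraries 7534 and 7814.

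**Figure D4:**
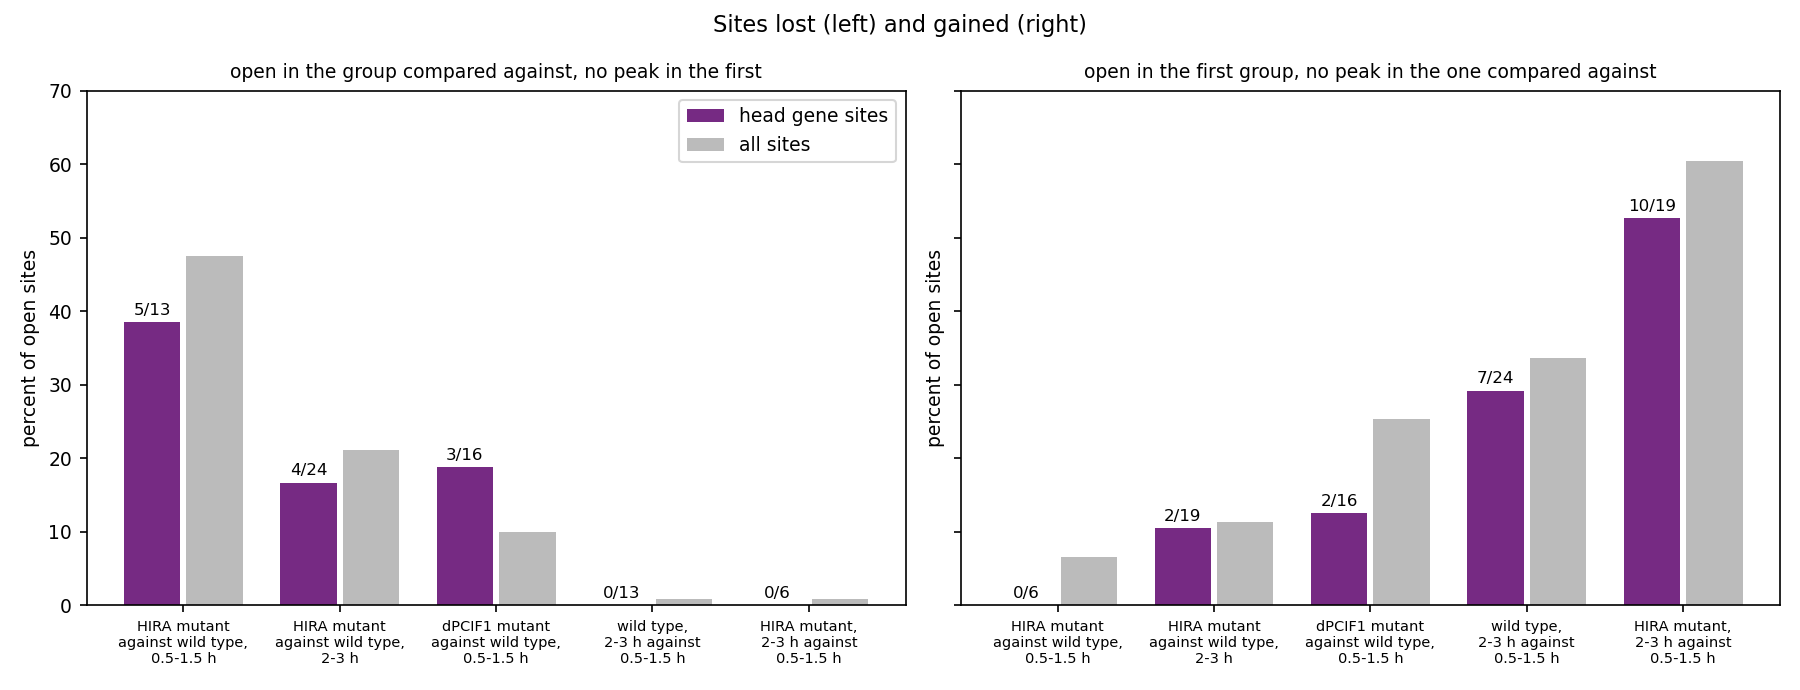
Percent of open sites lost (left) and gained (right) at the head genes (purple, with counts) and over all sites of the series (grey) in 5 comparisons. The head gene share is above that of all sites only for loss in dPCIF1 mutants, 18.8% against 9.92%, a count that includes fd19B-2.

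With age, head gene sites were added and none was lost in the HIRA set. In its wild type, 7 of the 24 sites open at 2-3 h had no peak at 0.5-1.5 h, or 29.2%, against 33.6% of all sites. They were ems-5, btd-1, cnc-2, cnc-5, cnc-6, cnc-15 and cnc-17, of which 5 lay in the cnc window. The ems-5 peaks at 2-3 h lay just outside the ems window, as given above. The coding-exon site cnc-15 had peaks of 336 and 338 bp and the intron site cnc-2 of 420 and 275 bp at 2-3 h. Both had peaks in the early wild-type libraries for dPCIF1, of 218 and 390 bp at cnc-15 and of 282 and 209 bp at cnc-2, so they were absent early in the wild type of the HIRA set but not in that of the dPCIF1 set. The intron site cnc-5, with Zelda and GAF matches, was among the 7, with peaks near the lower limit of 200 bp. It also had early peaks in the dPCIF1 set, of 282 bp in wild-type replicate 2 and of 211 and 272 bp in mutants. Of the 13 sites open at 0.5-1.5 h, 0 were lost at 2-3 h, against 0.854% of all sites. These wild-type libraries held 4707 and 5449 peaks at 0.5-1.5 h and 11432 and 9998 at 2-3 h, and its part in the added sites was not tested.

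In HIRA mutants, 10 of the 19 sites open at 2-3 h had no peak at 0.5-1.5 h, or 52.6%, with 60.4% over all sites. They included croc-2, croc-3 and croc-4, so that the whole croc locus went without a peak at the early stage and was open at 2-3 h, and also oc-10, ems-5, cnc-2, cnc-11, cnc-15, toy-1 and toy-5. Of these, ems-5 (its peaks again outside the ems window), cnc-2 and cnc-15 were also absent early and open at 2-3 h in the wild type of the HIRA set. The croc TSS peak was 568 and 560 bp wide in HIRA mutants at 2-3 h and absent at 0.5-1.5 h, and in wild type it was 643 and 646 bp at 2-3 h and 467 and 557 bp at 0.5-1.5 h. Of the 6 sites open in early HIRA mutants 0 were lost at 2-3 h, against 0.888% of all sites. The HIRA mutant libraries held 1505 and 2399 peaks at 0.5-1.5 h and 10595 and 7122 at 2-3 h. How far these totals set the added sites was not tested. Without HIRA mutant replicate 1 or 2 at 2-3 h, 17 of 26 (65.4%, against 67.1% of all sites) and 22 of 31 (71.0%, against 75.8%) were absent early, and among the 1505 widest peaks no member site was absent early, of 1 in HIRA mutants and 2 in wild type.

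Motif matches in the 201 bp around the midpoint were counted on either strand. GAF matches were in 9 of 52 head gene sites (17.3%), against 6.4% of all sites, and Zelda matches in 5 (9.62%), against 3.93%. Bicoid matches were in 5 (9.62%), against 5.91%, and DREF matches in 2 (3.85%), against 3.34%. Among the 29 sites open in both libraries of a group, 8 (27.6%) held a GAF match, against 9.26% of such sites in the series. For Zelda these were 2 (6.9%), against 5.12%, for Bicoid 4 (13.8%), against 6.06%, and for DREF 0, against 3.8%. Over the whole length of these sites, Zelda matches were in 10.3%, below the 12.3% of such sites in the series. The GAF sites lay at oc (oc-3, oc-11), btd (btd-1, btd-2), cnc (cnc-3, cnc-5, cnc-6) and croc (croc-2, croc-3), with none at ems, fd19B or toy. Of the 5 GAF sites open in early wild type, 2 were lost in early HIRA mutants, and of the 8 without a match 3 were, against 40.2% and 48.6% of such sites in the series.

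The 14 sites nearest outside the windows, 1 on each side of each gene, had peaks in 1 to 10 libraries (median 3), and 3 lay within 1 kb of the edge. Of the sites inside, 3 (oc-11, ems-5 and fd19B-1) crossed the edge, with peaks in 11, 6 and 1 libraries, of which 9, 1 and 1 had a peak that reached the window itself. The share of each library's peak bases at a gene was also compared over the 12 libraries with that of the other genes that had peaks in at least 6 libraries. fd19B itself had peaks in 3 libraries. The most alike gene was ems for toy (Pearson r = 0.94), l(1)10Bb for btd (0.99), CG13653 for oc (0.95), Psc for ems (0.96), MSBP for cnc (0.78), CG10939 for croc (0.98) and CG8476 for fd19B (0.93). These are the highest values over the genes compared, and all points share the libraries and their peak totals, so no p is given.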

How the data were processed

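The deposited files, made by the authors with Trimmomatic 0.39, Bowtie2 2.2.5, SAMtools 1.18 and MACS2 2.2.7.1 per the labels and the study's methods, list the chromosome, start and end of each peak on dm6, called separately in each of 12 libraries. These positions carry no read count, score or q-value, so depth is unknown and a missing peak means only that the threshold was not passed. Any shift of reads for the transposase cut is not given in the sources used here.

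Sites were built from 89676 peaks by joining, in chains, those that overlapped by at least 20% of both. This was done with python 3.11.15, numpy 2.4.6, pandas 2.3.3 and matplotlib 3.10.9, and checked on simulated peaks. Genes came from Ensembl release 115, and coordinates count from 1. The 7 genes, the list of 15 and the rules were chosen with earlier results of these data known. All sites of the 7 genes were eligible to be named. With 2 libraries against 2 an exact permutation test cannot give a p below 0.33, so none was run. Alternatives were other overlaps, a 2 kb flank, 1505 widest peaks per library, the other wild-type set, leaving out each library and pairing by replicate number.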

Additional observations from a re-analysis of the deposited data

Results flagged for a closer look

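The number of toy sites with a peak moved in opposite directions in HIRA mutants at the 2 stages, in every library. At 2-3 h it was 6 and 4 in HIRA mutants, against 2 and 2 in wild type. At 0.5-1.5 h it was 1 and 2 in HIRA mutants, against 3 and 3 in wild type. Each of the 7 genes was searched for this pattern and toy alone showed it. How often it occurs over other genes was not counted. The late mutant count includes toy-3 and toy-7, each with a peak in 1 of the 2 late HIRA mutant libraries. The difference between the stages was not tested, and the libraries also differed in their peak totals, given above. Groups of 2 libraries are too small for a search for single outlying libraries.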

How the results depend on the processing

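Counts of head gene sites lost or gained changed with how many peaks entered, with whether 1 or 2 libraries defined a group and, for dPCIF1, with the wild-type set. Joining peaks at 1 bp or at 50% of both kept all 6 counts within 1.5 times their value, and a flank of 2 kb did so except for the sites gained in dPCIF1 mutants (1 in place of 2). With 1505 widest peaks per library, the lost sites numbered 1 in early HIRA mutants, 1 in HIRA mutants at 2-3 h and 1 in dPCIF1 mutants, the gained sites in dPCIF1 mutants 0, and the late sites absent early 0 in wild type and 0 in HIRA mutants; at this limit 1 to 7 member sites were open in the group counted. With the other wild-type set, dPCIF1 mutants had 0 lost and 4 gained sites. The labels give the same replicate numbers in each group but nothing that ties equal numbers to a shared collection. Pairing by replicate number (replicate block), with the mean of both numbers taken, gave 9 of 16.5 sites lost in early HIRA mutants (72.8% of all sites), 8 of 26.5 at 2-3 h (44.6%), 6 of 20 lost (28.1%) and 9 of 23 gained (48.1%) in dPCIF1 mutants, and 11 of 26.5 in wild type (59.1%) and 21 of 28.5 in HIRA mutants (79.8%) for late sites absent early; here a site open in a single library counts, and the shares of all sites rose too. Leaving out each library in turn gave 6 to 8 lost in early HIRA mutants (all sites, 55.4% to 67.8%), 4 to 7 at 2-3 h (25.0% to 39.4%), 3 to 6 lost (13.1% to 21.4%) and 2 to 10 gained (34.2% to 40.5%) in dPCIF1 mutants, and 8 to 10 in wild type (43.9% to 50.3%) and 11 to 22 in HIRA mutants (67.1% to 77.6%) for late sites absent early. The head genes with an open TSS in early HIRA mutants numbered 3 to 5 under the alternatives, which for this count were chosen after seeing the data. Searching whole sites gave 4 DREF and 10 Bicoid sites, in place of 2 and 5. The whole-site shares were 7.69% for DREF, against 8.57% of all sites, and 19.2% for Bicoid, against 13.3%. For GAF the whole-site search gave 11 sites (21.2%, against 12.2% of all sites), and for Zelda 6 (11.5%, against 8.27%).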
